A study of Saccharomyces cerevisiae with 6 samples.

Results

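The AAD genes and the OYE genes of Saccharomyces cerevisiae are annotated as known or putative reductases of aldehydes, ketones and related carbonyl compounds. Of 9 names considered (AAD3, AAD4, AAD6, AAD10, AAD14, AAD15, AAD16, OYE2 and OYE3), 8 were found as gene names on the arrays, out of 6256 genes measured. No spot carried the name AAD16, and the sources used here pair that name with no systematic name, so the missing name does not show that the gene was not measured. YFL057C, an open reading frame that the files list by its systematic name and annotate like the AAD genes, is described beside AAD6. The genes were selected on their family names and on their ratios of mutant to reference in these same arrays. Those ratios are therefore given as a description, and counts of these genes called against the reference only describe the selection. Differences between the mutant alleles, which the selection did not use, are given with tests. Adjusted p-values against the reference are also given for chromosomal neighbours and for listed genes, whose lists were chosen with earlier results known.

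The AAD proteins are putative aryl-alcohol dehydrogenases of the aldo-keto reductase superfamily, named for their likeness to an enzyme of a lignin-degrading fungus. AAD4 and AAD6 are known to be induced by thiol-oxidising agents through the oxidative stress regulator Yap1. OYE2 and OYE3 encode the old yellow enzymes, flavoproteins that use NADPH to reduce the carbon double bond next to a carbonyl group. Tra1, the protein altered in this study, is a large scaffold protein related to the phosphatidylinositol kinases and a subunit of both SAGA and NuA4, complexes that acetylate histones.

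The study asked how changes in the kinase-related domain of Tra1 alter transcription. In every strain the chromosomal TRA1 gene was disrupted by a Tn10LUK insertion, and a myc-tagged gene on the centromeric plasmid YCplac111 took its place. The mutant strains were CY1507, carrying myc-tra1_P3408A, CY1531, carrying myc-tra1_SRR3413, and CY1514, carrying myc-tra1_S3463A, and the reference strain CY1524 carried myc-TRA1_SB. Each mutant was compared with the reference on 2 arrays with swapped dyes, described as biological replicates, so each allele is represented by 1 strain and 2 samples. For each allele, array 1 held the mutant RNA labelled with Cy5, and array 2 held it labelled with Cy3.

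Some labels conflict. The source named for channel 2 of array 1 of tra1-S3463A is the tra1_SRR3413 strain, whereas its title names tra1-S3463A, and the title was followed. On array 2 of tra1_SRR3413 and array 2 of tra1-S3463A, the dye written in front of 1 source differs from the label field, which was followed. Between 99.2% and 99.6% of gene spots per array were well above background in both channels. TRA1 itself had mean log2 ratios of 1.02 ± 0.26 (tra1-P3408A), 1.44 ± 0.70 (tra1_SRR3413) and 1.24 ± 0.72 (tra1-S3463A), each with its SD over 2 arrays. A probe for TRA1 reads the plasmid gene of mutant and reference alike, so it does not check which allele is present. Whether 1 reference culture served several arrays is not given in the sources used here, so the comparisons of the 3 alleles share the reference strain.

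Where 3 values follow each other without names, they stand for the alleles in the order tra1-P3408A, tra1_SRR3413, tra1-S3463A. Values below are log2 (mutant / reference) of background-corrected, loess-normalized signals unless a signal is named. A gene was counted as lower or higher where limma gave an adjusted p below 0.05 over the 6119 genes tested, and all 8 genes were among those tested. In each of the 3 alleles, 4 of the 8 genes were lower and 0 were higher. These 4 were AAD4, AAD6, AAD10 and OYE3 in each allele. Over all genes tested, 7.93% were lower and 4.76% higher in tra1-P3408A, 11.7% and 9.33% in tra1_SRR3413, and 8.69% and 6.37% in tra1-S3463A. Since the genes were chosen on this contrast, the counts describe the selection and carry no further reading. The median log2 ratio of the 8 genes was -0.72, -1.02 and -0.79 in the 3 alleles, beside medians of -0.01, -0.01 and 0.00 over all genes. The remaining genes, AAD3, AAD14, AAD15 and OYE2, passed in none of the alleles in this fit, while with slide as a block AAD15 was also lower in tra1_SRR3413 and tra1-S3463A (-0.31 and -0.33), which made 5 of 8 lower there. Under that block 22.5% of all genes were lower and 21.3% higher in tra1-P3408A, 26.1% and 25% in tra1_SRR3413, and 24.2% and 24.5% in tra1-S3463A.

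**Figure D1:**
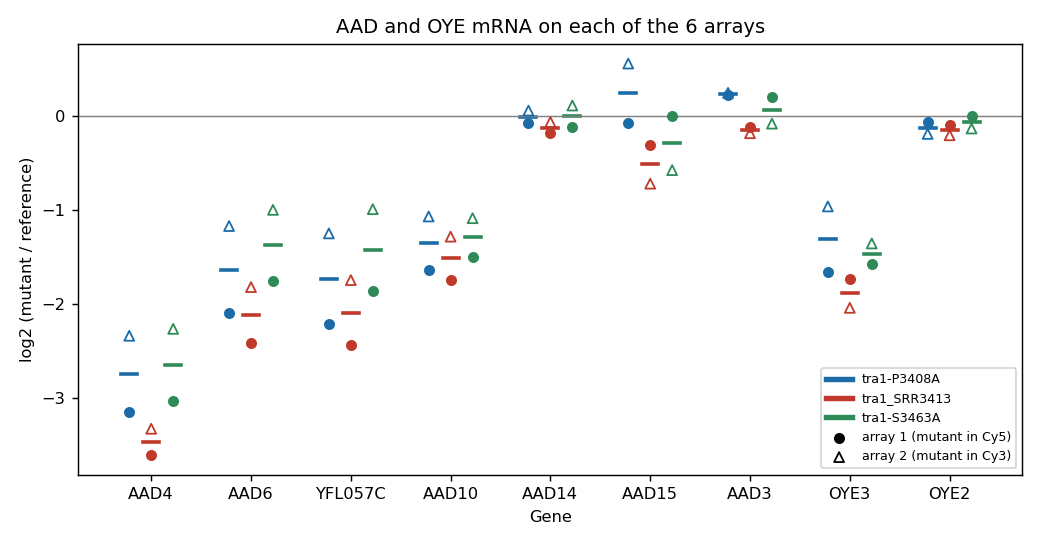
The vertical axis gives log2 (mutant / reference) and the horizontal axis the genes, with YFL057C beside AAD6. Filled circles are array 1, open triangles array 2 and short bars the mean of 2 arrays, coloured by allele. AAD4 sits lowest at -3.61 to -2.26, whereas AAD14 stays between -0.19 and 0.11.

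AAD4 (YDL243C), an aryl-alcohol dehydrogenase, was the lowest of the family on every array. In tra1-P3408A its log2 ratios were -3.15 and -2.34 on arrays 1 and 2, a mean of -2.74 ± 0.57 (SD, n = 2), which is 6.69-fold lower than the reference. In tra1_SRR3413 they were -3.61 and -3.33, a mean of -3.47 ± 0.20 or 11.1-fold lower. In tra1-S3463A they were -3.04 and -2.26, a mean of -2.65 ± 0.55 or 6.28-fold lower. Thus both tra1_SRR3413 arrays lay below all 4 arrays of the other alleles. From the lowest ratio upward, AAD4 ranked 6, 4 and 6 of 6119 in the 3 alleles.

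The dye-normalized signal named here and below is the processed signal of the scanner software. Averaged over the 2 AAD4 spots, it shows which channel carried the change. On arrays 1 and 2 of tra1-P3408A the reference channel read 13437 and 7642 units and the mutant channel 1516 and 1470 units. On those of tra1_SRR3413 the reference read 12803 and 8488 units and the mutant 1034 and 832 units. On those of tra1-S3463A the reference read 13107 and 7667 units and the mutant 1577 and 1602 units. The mutant channels of all 6 arrays lay below all 6 reference channels. The reference signal was higher on all arrays 1, where the reference was in Cy3, than on all arrays 2, where it was in Cy5.

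AAD6 (YFL056C), a paralogue of AAD4, was the next lowest of the 8 genes by its mean in each allele except tra1-S3463A, where OYE3 was lower. Its log2 ratios were -2.10 and -1.17 in tra1-P3408A (mean -1.64 ± 0.66), -2.41 and -1.82 in tra1_SRR3413 (mean -2.12 ± 0.42) and -1.76 and -1.0 in tra1-S3463A (mean -1.38 ± 0.53). The means correspond to 3.11-fold, 4.34-fold and 2.6-fold lower levels. Array 1 was the lower array in each allele. The range of tra1-P3408A overlapped those of the other alleles, whereas both tra1_SRR3413 values lay just below both tra1-S3463A values. On array 1 of tra1-S3463A, 1 of the 2 AAD6 spots was marked as an outlier and left out.

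YFL057C, an open reading frame with its own 2 spots and the same enzyme annotation in the files, is listed as a synonym of AAD6 in the gene table of the R64 assembly, which classes AAD6 as a pseudogene. It was taken up beside AAD6 after its values were seen. Its log2 ratios were -2.21 and -1.25 in tra1-P3408A, -2.44 and -1.75 in tra1_SRR3413 and -1.87 and -0.99 in tra1-S3463A. Within an array, AAD6 minus YFL057C was between -0.07 and 0.11, so both probes gave nearly the same ratio on all 6 arrays. A further gene with that annotation, YPL088W, also named after its values were seen, had mean log2 ratios of -0.59 ± 0.15, -0.56 ± 0.20 and -0.57 ± 0.31.

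AAD10 (YJR155W), another aryl-alcohol dehydrogenase of the family, was lower by a similar amount in the 3 alleles. Its log2 ratios were -1.64 and -1.07 in tra1-P3408A (mean -1.36 ± 0.41, 2.56-fold lower), -1.75 and -1.28 in tra1_SRR3413 (mean -1.52 ± 0.33, 2.86-fold lower) and -1.50 and -1.09 in tra1-S3463A (mean -1.29 ± 0.29, 2.45-fold lower). All 6 values lay between -1.75 and -1.07, and the ranges of the alleles overlapped.

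OYE3 (YPL171C), one of the old yellow enzymes, was lower on all 6 arrays. Its log2 ratios were -1.67 and -0.96 in tra1-P3408A (mean -1.31 ± 0.50, 2.49-fold lower), -1.73 and -2.04 in tra1_SRR3413 (mean -1.89 ± 0.22, 3.70-fold lower) and -1.58 and -1.36 in tra1-S3463A (mean -1.47 ± 0.16, 2.77-fold lower). As for AAD4, both tra1_SRR3413 arrays lay below the other 4, although array 1 of tra1-P3408A was close. Its dye-normalized signals on arrays 1 and 2 fell from 18682 and 12859 units in the reference to 5774 and 6558 units in tra1-P3408A, and from 16724 and 15858 units to 4998 and 3824 units in tra1_SRR3413. In tra1-S3463A they fell from 16847 and 13345 units to 5562 and 5174 units. No mutant channel reached the level of any reference channel. On array 1 of tra1_SRR3413, 1 of the 2 OYE3 spots was marked as an outlier and left out.

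OYE2 (YHR179W), the other old yellow enzyme, stayed near the reference in the fit reported here. Its log2 ratios were -0.07 and -0.19 in tra1-P3408A, -0.10 and -0.21 in tra1_SRR3413 and -0.01 and -0.13 in tra1-S3463A, with means of -0.13 ± 0.09, -0.15 ± 0.08 and -0.07 ± 0.09. Over all settings and left-out arrays, the OYE2 mean ranged from -0.25 to -0.07 in tra1-P3408A, from -0.45 to -0.10 in tra1_SRR3413 and from -0.36 to -0.01 in tra1-S3463A. OYE2 was the brightest of the genes, with dye-normalized signals of 24954 to 44324 units. Its spot was saturated in the reference channel on array 2 of tra1-P3408A and in both channels on array 2 of tra1-S3463A, where the ratio is compressed by an unknown amount. On the 4 arrays without a saturation flag, OYE2 minus OYE3 was 1.57 to 1.83, so the OYE2 ratio was above that of OYE3 on each of them. Some of their OYE2 channels were near the ceiling, beside a raw mean signal of 65130 in a flagged channel. The mutant read 61392 on array 1 of tra1-P3408A and of tra1-S3463A, and the reference 60948 on array 2 of tra1_SRR3413. Ratios there may be altered as well. On the 2 flagged arrays OYE2 minus OYE3 was 0.77 and 1.22.

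AAD14 (YNL331C) had log2 ratios of -0.08 and 0.06 in tra1-P3408A, -0.19 and -0.07 in tra1_SRR3413 and -0.12 and 0.11 in tra1-S3463A, all near 0. AAD15 (YOL165C) gave -0.08 and 0.56 in tra1-P3408A, -0.31 and -0.72 in tra1_SRR3413 and -0.0035 and -0.58 in tra1-S3463A, so its arrays differed in sign within tra1-P3408A. AAD3 (YCR107W) gave 0.22 and 0.24 in tra1-P3408A, -0.12 and -0.18 in tra1_SRR3413 and 0.20 and -0.08 in tra1-S3463A. The AAD3 spot was near background, with dye-normalized signals of 3.38 to 28.3 units. It was well above background in both channels on 4 of the 6 arrays, in 1 channel on array 1 of tra1-S3463A and in neither on array 2 of tra1_SRR3413. Over all settings and left-out arrays, its mean ranged from 0.16 to 0.86 in tra1-P3408A, from -1.16 to -0.03 in tra1_SRR3413 and from -0.49 to 0.66 in tra1-S3463A. Its sign was kept in tra1-P3408A and in tra1_SRR3413, while in tra1-S3463A it turned.

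**Figure D2:**
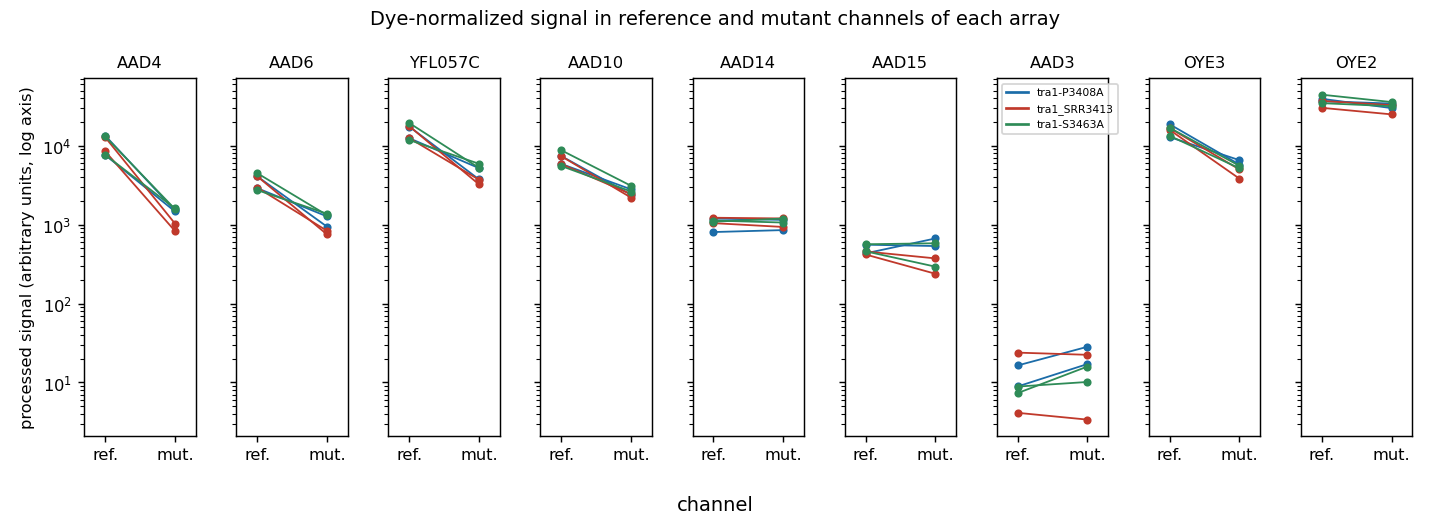
Each line joins the reference channel (left) and the mutant channel (right) of 1 array, with the dye-normalized signal in arbitrary units on a log axis and the allele by colour. The AAD4, AAD6, YFL057C, AAD10 and OYE3 lines fall on all 6 arrays, AAD14 and OYE2 lines are nearly level, and AAD3 lies at 3.38 to 28.3 units.

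The AAD paralogues are similar in sequence, so a probe may also bind the transcript of another AAD gene. The files used here hold no probe sequences, and the part of cross-hybridisation in these ratios was not tested. The ratios show how far the probes differ. AAD4 minus AAD14 was -3.42 to -2.37 within an array, AAD10 minus AAD14 was -1.56 to -1.13, and AAD4 minus AAD6 was -1.51 to -1.05. AAD4 minus AAD10 was -2.04 to -1.18. AAD6 minus AAD10 was -0.67 to 0.09, so these probes differed on some arrays and on others lay as close as repeat spots of AAD10. The AAD4, AAD10 and AAD14 probes, and the AAD4 and AAD6 probes, thus read unequal ratios on every array. AAD6 minus YFL057C was only -0.07 to 0.11, although on some arrays it exceeded the difference between repeat spots of either gene. Repeat spots of the same gene on an array differed by at most 0.0960 for AAD4, 0.0281 for AAD6, 0.114 for AAD10, 0.0443 for YFL057C and 0.0257 for OYE3.

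**Figure D3:**
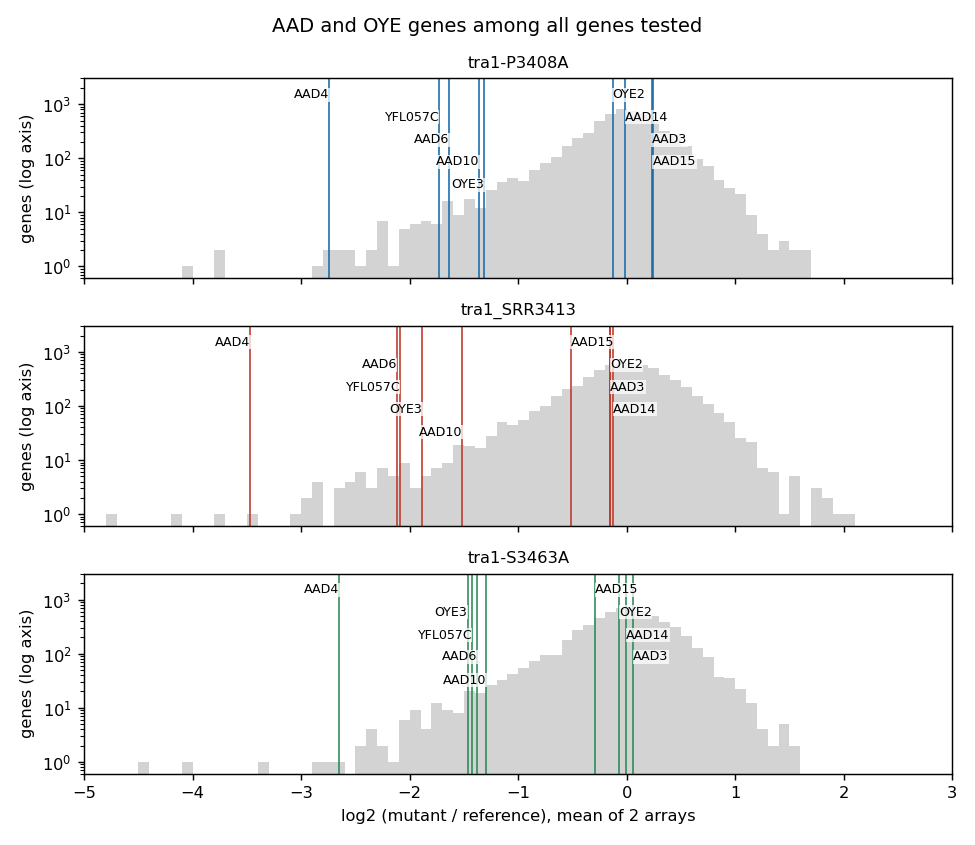
Grey bars count all 6119 genes tested (log axis) by their mean log2 (mutant / reference) in each allele, and coloured lines mark the AAD and OYE genes and YFL057C. AAD4 lies at the far lower end in all 3 alleles, at -2.74, -3.47 and -2.65, and AAD14 and OYE2 lie in the central peak.

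The calls of single genes rest on few arrays. Where an array was left out, the allele had 1 sample, which the fit assumes to vary like the other alleles. Without array 1 or array 2 of tra1-P3408A, the AAD4 ratio in that allele was -2.34 or -3.15. Without array 1 or array 2 of tra1-S3463A, it was -2.26 or -3.04 there. Fewer of the 8 genes were then called in these alleles, without the AAD4 ratio nearing 0. Fewer were also called in tra1-S3463A with its array 1 counted as tra1_SRR3413, as its channel source says. In tra1_SRR3413 the calls stayed the same whichever array of the series was left out. Genes of the pathway lists lost calls in such fits as well. The shares of all genes called in them are not given here, so the losses carry no reading about these 8 genes. Samples of the same array number deviated together, and with array number as a replicate block the count was again 4 lower and 0 higher of 8 in each allele. The background under that block was 19.3% lower and 16.9% higher in tra1-P3408A, 25.1% and 24.1% in tra1_SRR3413, and 21.9% and 21.2% in tra1-S3463A.

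The direct comparison of the alleles asked whether the 3 substitutions alter this gene family to different degrees. In limma contrasts over all 6119 genes, 0 of the 8 genes passed an adjusted p of 0.05 in any of the 3 contrasts, and the background was 0% called in tra1_SRR3413 minus tra1-P3408A, 0% in tra1_SRR3413 minus tra1-S3463A and 0% in tra1-P3408A minus tra1-S3463A. At an unadjusted p below 0.05, the contrasts held 105, 105 and 6 of all genes and 1, 0 and 0 of the 8 genes. With array number as a replicate block, 0 genes passed the adjusted threshold and 742, 502 and 88 the unadjusted one. The contrasts share arrays, since each allele enters 2 of them. The 95% confidence intervals below come from the fit without a block, so they do not use the pairing by array number. Shifts shared by arrays of the same number thus count as spread in them. For instance, AAD6 in tra1_SRR3413 minus tra1-S3463A was -0.66 between arrays 1 and -0.82 between arrays 2. With array number as a replicate block its limma adjusted p was 0.437.

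For AAD4, tra1_SRR3413 minus tra1-P3408A was -0.73 (95% confidence interval -1.60 to 0.15, limma adjusted p = 0.998). The difference was -0.46 between arrays 1, which shared a slide, and -0.99 between arrays 2. AAD4 in tra1_SRR3413 minus tra1-S3463A was -0.82 (-1.69 to 0.06), and it was -1.06 between the arrays 2, which shared a slide. AAD4 in tra1-P3408A minus tra1-S3463A was -0.09 (-0.97 to 0.78), with -0.11 between arrays 1 and -0.07 between arrays 2. It was 0.70 between the 2 arrays that shared a slide and 0.27 with slide as a block, so its direction turned. Those 2 arrays had opposite dye orientation, array 2 of tra1-P3408A in Cy3 and array 1 of tra1-S3463A in Cy5. Slide and dye orientation therefore cannot be told apart in this turn. The lower AAD4 level in tra1_SRR3413 therefore did not pass the test, and its interval reaches from about 0 to more than 1.5 log2 units below the other alleles.

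For OYE3, tra1_SRR3413 minus tra1-P3408A was -0.57 (-1.23 to 0.08), with -0.07 between arrays 1 and -1.08 between arrays 2, so array 2 carried nearly all of it. OYE3 in tra1_SRR3413 minus tra1-S3463A was -0.42 (-1.07 to 0.24). For AAD6 the same contrasts gave -0.48 (-1.48 to 0.51) and -0.74 (-1.73 to 0.25), and for AAD10 -0.16 (-0.84 to 0.52) and -0.22 (-0.90 to 0.46). OYE2 gave -0.02 (-0.40 to 0.35) and -0.08 (-0.45 to 0.29), but each of these contrasts holds an array on which its spot was saturated, so the true differences may lie outside these intervals. The gene past the unadjusted threshold was AAD15, at -0.75 (95% confidence interval -1.50 to -0.0079, limma adjusted p = 0.998) in tra1_SRR3413 minus tra1-P3408A. Its difference was -0.23 between arrays 1 and -1.28 between arrays 2. The number of genes with a negative difference was 8 of 8 in tra1_SRR3413 minus tra1-P3408A (7 under some settings), and 8 of 8 in tra1_SRR3413 minus tra1-S3463A (5 when array 1 of tra1-S3463A was counted as tra1_SRR3413). In tra1-P3408A minus tra1-S3463A it was 5 of 8, but 1 of 8 with slide as a block, without array 1 of tra1-P3408A or without array 2 of tra1-S3463A. The arrays of these alleles that shared a slide had opposite dye orientation, and leaving out an array leaves 1 orientation in its allele. These counts include AAD3, which was near background.

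**Figure D4:**
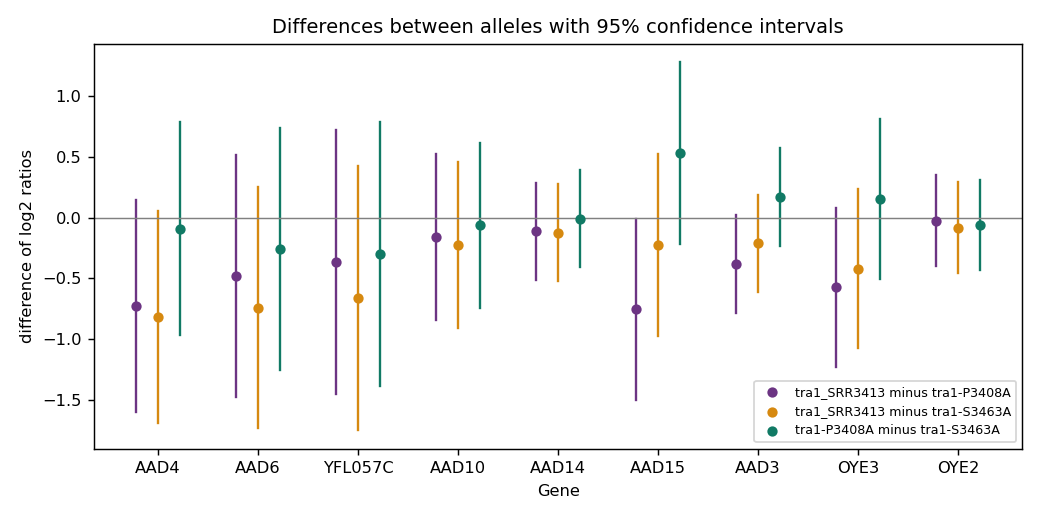
Points are differences of log2 ratios between alleles, for each gene and 3 contrasts given by colour. Lines are their 95% confidence intervals from the limma fit without a block, which does not use the pairing by array number. The lines cross 0 for every gene and contrast except AAD15 in tra1_SRR3413 minus tra1-P3408A, whose upper bound is -0.0079.

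The genes whose 6 log2 ratios lay nearest to those of a family gene were found by Euclidean distance over the 6 arrays. Nearest to AAD4 were HIS4 at 0.959, SPL2 at 0.973 and ADE1 at 0.995. Nearest to OYE3 were SER1 at 0.473, ADH6 at 0.536 and CIT2 at 0.546. Nearest to OYE2 were NAT3 at 0.0960, YCR038W-A at 0.0993 and RSE1 at 0.100, in the crowd of genes near 0. AAD6 and YFL057C were each other's nearest gene at 0.194, and the next gene to AAD6, HUA1, was at 0.784.

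Among 22 other targets of Yap1, the transcription factor that several of these reductases answer to, 11 fell and 0 rose in tra1-P3408A, 15 fell and 0 rose in tra1_SRR3413, and 10 fell and 0 rose in tra1-S3463A (limma, adjusted over all genes). Their median log2 ratios were -0.71, -0.93 and -0.75. Over all genes tested, 7.93%, 11.7% and 8.69% fell and 4.76%, 9.33% and 6.37% rose in the 3 alleles. GTT2, a glutathione transferase, had -1.96 ± 0.63, -2.84 ± 0.09 and -1.85 ± 0.07 and passed in each allele. YLR460C, a gene of unknown function, had -1.75 ± 0.30, -2.03 ± 0.02 and -2.05 ± 0.05, and passed in each. FLR1, a multidrug transporter, had -0.89 ± 0.19, -2.12 ± 0.43 and -1.13 ± 0.26, and OSI1 (YKL071W) had -0.93 ± 0.46, -2.12 ± 0.33 and -1.18 ± 0.04. Both also passed in each allele. With array number as a replicate block, 2 of the 22 rose in tra1_SRR3413, where 24.1% of all genes rose. The list was put together with earlier results of these arrays known, so its direction is not independent evidence.

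A list of 8 genes around Yap1 held YAP1, YBP1, SKN7, HYR1, CRM1, TSA1, MSN2 and MSN4, not all of them regulators of Yap1. Beside 7.93%, 11.7% and 8.69% of all genes, 1 of these 8 fell in each allele. This was TSA1, a peroxiredoxin, at -0.47 ± 0.09, -0.70 ± 0.10 and -0.49 ± 0.11 (limma adjusted p = 0.0436, 0.0106 and 0.0377). MSN4, a general stress transcription factor, rose by 0.86 ± 0.51 in tra1_SRR3413 (limma adjusted p = 0.0345), and had 0.45 ± 0.09 and 0.64 ± 0.36 in tra1-P3408A and tra1-S3463A without passing. SKN7, a partner of Yap1, had 0.32, 0.51 and 0.48, and HYR1, the peroxidase that activates Yap1, had -0.39, -0.36 and -0.36, without passing. With array number as a replicate block, 2 of the 8 fell in each allele, and 1, 3 and 2 rose in the 3 alleles. Of all genes, 19.3%, 25.1% and 21.9% fell and 16.9%, 24.1% and 21.2% rose under that block. The counts of the 8 are near these shares and carry no reading about the listed genes. Under that block HYR1 fell (limma adjusted p = 0.00975, 0.00897 and 0.0116) and SKN7 rose (0.0497, 0.00888 and 0.0128) in each allele, and MSN4 rose also in tra1-S3463A (0.0208). The mRNA of YAP1 itself, singled out after its values were seen, had log2 ratios of -0.05, -0.06 and -0.01.

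Of 5 other aldo-keto reductases tested, 3, 2 and 3 fell in the 3 alleles, and 0 rose. Among all genes, 7.93%, 11.7% and 8.69% fell and 4.76%, 9.33% and 6.37% rose. YJR096W had -1.25 ± 0.25, -1.03 ± 0.12 and -1.38 ± 0.24, and YPR1 had -1.06 ± 0.56, -1.08 ± 0.02 and -1.06 ± 0.10, and both passed in each. GCY1, a glycerol dehydrogenase, fell by 0.99 ± 0.09 in tra1-P3408A and by 1.06 ± 0.15 in tra1-S3463A, and had -0.16 ± 0.03 in tra1_SRR3413. GCY1 in tra1_SRR3413 minus tra1-P3408A was 0.84 (95% confidence interval 0.45 to 1.22), with an unadjusted limma p of 0.00178 and an adjusted p of 0.998. FLR1, OSI1 and GTT2 of the Yap1 list had differences of -1.23, -1.18 and -0.88 in the same contrast and of -0.99, -0.94 and -0.996 in tra1_SRR3413 minus tra1-S3463A, the opposite direction to GCY1. Their 95% confidence intervals, like that of GCY1, lay on 1 side of 0, and none passed after adjustment (limma adjusted p = 0.998 and 1.00). GRE3, an aldose reductase, had -0.70 ± 0.60, -0.40 ± 0.29 and -0.80 ± 0.37 without passing, but with array number as a replicate block its adjusted p was 0.00475, 0.0208 and 0.00311.

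Of 9 other NADPH-dependent alcohol and aldehyde reductases tested, 5, 6 and 5 fell in the 3 alleles, and 0 rose. Among all genes, 7.93%, 11.7% and 8.69% fell and 4.76%, 9.33% and 6.37% rose. The butanediol dehydrogenase homologue BDH2 had -2.45 ± 0.14, -2.66 ± 0.13 and -2.34 ± 0.45. ADH6, a broad cinnamyl alcohol dehydrogenase, had -1.49 ± 0.17, -1.76 ± 0.03 and -1.45 ± 0.07. YGL039W had -1.07 ± 0.10, -1.47 ± 0.29 and -1.28 ± 0.31, YDR541C had -1.12 ± 0.44, -1.19 ± 0.03 and -1.27 ± 0.23, and all 4 genes passed in each allele. With array number as a replicate block, 1 of the 9 rose in tra1_SRR3413 and 1 in tra1-S3463A, beside 24.1% and 21.2% of all genes. GRE2, a methylglyoxal reductase, stands in this list and in the Yap1 list.

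Of 9 genes tested of the Ehrlich pathway, which makes fusel and aromatic alcohols from amino acids, 4 fell and 0 rose in each allele. BAT2, the cytosolic branched-chain aminotransferase, had -1.56 ± 0.14, -1.04 ± 0.30 and -1.39 ± 0.28. ARO10, a decarboxylase, had -0.84 ± 0.05, -1.09 ± 0.09 and -0.64 ± 0.20, and ARO9, an aromatic aminotransferase, had -0.69 ± 0.14, -0.98 ± 0.20 and -0.50 ± 0.03. SFA1, an alcohol and formaldehyde dehydrogenase, had -0.88 ± 0.41, -1.13 ± 0.31 and -1.08 ± 0.29. With array number as a replicate block, 7 of the 9 fell in tra1-P3408A, where 19.3% of all genes fell. Under that block 1 rose in tra1_SRR3413 and 1 in tra1-S3463A, beside 24.1% and 21.2% of all genes. Of the 52 distinct genes of these lists, 24, 28 and 23 were called in either direction in the 3 alleles. Among all genes, 7.93%, 11.7% and 8.69% fell and 4.76%, 9.33% and 6.37% rose, which also holds beside the Ehrlich genes. The count of list genes fell in each allele when either array of that allele was left out. The shares of all genes called in such fits are not given here.

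Several AAD genes lie near chromosome ends, so the nearest tested gene on each side was examined, by gene order in the R64 table, for 14 neighbours in all. Of these, 2 fell and 0 rose in tra1-P3408A, and 4 fell and 2 rose in tra1_SRR3413 (limma, adjusted over all genes). In tra1-S3463A, 3 fell and 1 rose. Over all genes tested, 7.93% fell and 4.76% rose in tra1-P3408A, 11.7% and 9.33% in tra1_SRR3413, and 8.69% and 6.37% in tra1-S3463A. Under the array number as a replicate block, 4 fell and 2 rose in tra1-P3408A, where 19.3% of all genes fell and 16.9% rose. In tra1-S3463A 2 rose under that block, where 21.2% of all genes rose. The median log2 ratio of the neighbours was -0.11, -0.19 and -0.12 in the 3 alleles. These calls also rest on few arrays, since fewer neighbours were called in each allele when either of its arrays was left out. Fewer were also called in tra1-S3463A when either array of tra1-P3408A was left out. The shares of all genes called in such fits are not given here.

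The neighbours of AAD4, the gene with the largest decrease, did not pass in any allele. THI13, a thiamine synthesis gene with near-identical copies, had -0.12 ± 0.21, -0.05 ± 0.08 and 0.12 ± 0.19, and YDL242W had 0.00 ± 0.02, -0.08 ± 0.02 and -0.07 ± 0.05. Beside AAD10, YJR154W fell in each allele, with -0.90 ± 0.12, -0.81 ± 0.12 and -0.99 ± 0.14 (limma adjusted p = 0.00842, 0.00849 and 0.00646). Beside AAD6, AGP3, an amino acid permease, fell in each allele with -0.56 ± 0.0026, -0.57 ± 0.04 and -0.49 ± 0.02, and SNZ3, a gene of vitamin B metabolism, fell in tra1_SRR3413 with -0.87 ± 0.12. Beside OYE3, DAP1, a haem-binding protein, fell by 0.77 ± 0.11 in tra1_SRR3413 and by 0.81 ± 0.10 in tra1-S3463A, whereas COX10, needed for haem A synthesis, rose by 0.46 ± 0.07 and 0.45 ± 0.05. Beside OYE2, STB5, a transcription factor for NADPH-producing enzymes, rose by 0.47 ± 0.11 in tra1_SRR3413 (limma adjusted p = 0.0330) and had 0.40 ± 0.14 and 0.43 ± 0.03 in tra1-P3408A and tra1-S3463A without passing. With array number as a replicate block, SNZ3 fell also in tra1-P3408A and tra1-S3463A (-0.50 and -0.54, limma adjusted p = 0.0067 and 0.005), DAP1 fell and COX10 rose also in tra1-P3408A (-0.50 and 0.43, limma adjusted p = 0.0207 and 0.0122), and STB5 rose also in tra1-P3408A and tra1-S3463A (limma adjusted p = 0.01 and 0.00736). RPD3, BDS1 and YHR180W passed in no allele without a block or with either block, array number or slide. THI12 (-0.40) and RDS1 (-0.46) passed under that block in tra1_SRR3413 (limma adjusted p = 0.00744 and 0.0219), and with slide as a block both passed in tra1_SRR3413 (0.0193 and 0.0105) and in tra1-S3463A (0.0475 and 0.0108). With slide as a block THI11 also passed in tra1_SRR3413 (limma adjusted p = 0.0336). Under the slide block 26.1% of all genes were lower and 25% higher in tra1_SRR3413, and 24.2% and 24.5% in tra1-S3463A.

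**Figure D5:**
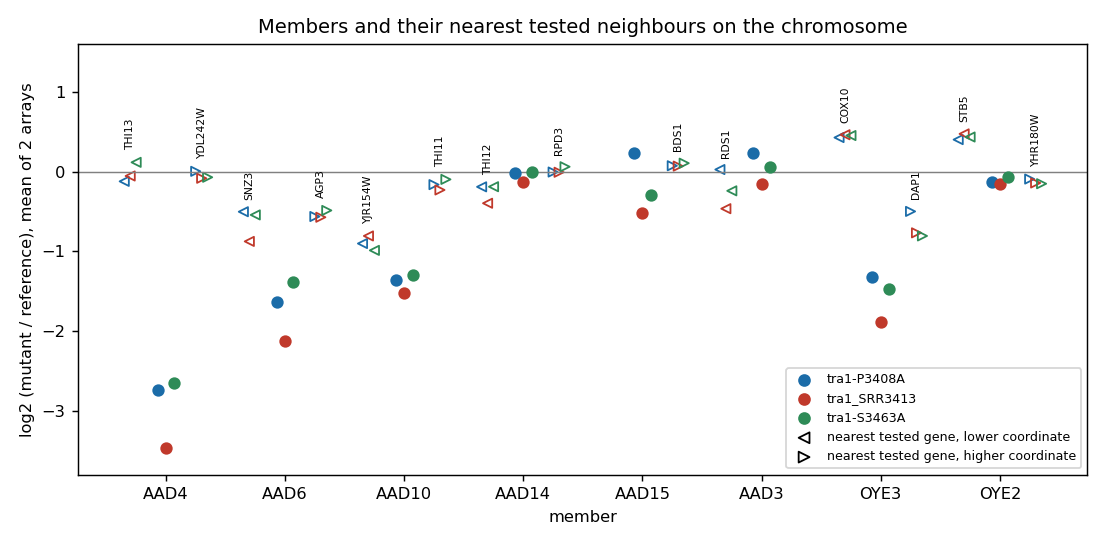
Filled circles give the mean log2 (mutant / reference) of 2 arrays for each AAD and OYE gene, and open triangles that of the nearest tested gene on each side, coloured by allele. Around AAD4, at -3.47 to -2.65, both neighbours lie between -0.12 and 0.12, whereas YJR154W beside AAD10 lies between -0.99 and -0.81.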

How the data were processed

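Total RNA of 3 mutant yeast strains was compared with that of 1 reference strain on 6 2-colour arrays after linear amplification, per the labels' protocols. The deposited intensity values are spot means and local background medians made by Agilent Feature Extraction 7.5.1, as the file headers state. Per the file headers, the program subtracted background (method code 7) and balanced the dyes by lowess to give its processed intensity, and the deposited log10 ratio is processed Cy5 over Cy3, per the file headers. The log10 values of the deposited series table were taken as mutant over reference. Of its comparable values, 100% equalled a turned ratio within 1e-04. That ratio is of a dye-normalized output that the program gives beside its processed intensity. Deposited flags mark spots well above background (2.6 background SD), saturated or outlying.

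Here, signals of 10807 spots per array were corrected by normexp (offset 50) and loess-normalized within arrays in limma 3.58.1 under R 4.3.3. The 544 control spots and outlier spots, 0.370% to 8.02% of gene spots, were left out, and spots of a gene were averaged. A gene was kept where some channel of 2 or more arrays read it well above background. Of 6256 genes, 2 were too dim and 135 lacked a value on some array, which left 6119. One limma fit held 3 allele means (3 residual degrees of freedom), with two-sided tests and Benjamini-Hochberg adjustment over all genes. Gene symbols came from the R64 table, which held 5756 (92.0%) of the names.

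The genes and lists were chosen with earlier results of these data known. Named were all members, up to 4 genes of each list by the smallest unadjusted p in any allele, the 3 nearest genes by distance for AAD4, OYE2, OYE3 and any member with another member among its nearest, and the chromosomal neighbours. Array number pairs the samples, since deviations from allele means correlated at 0.512, 0.467 and 0.930 between alleles. As array number also marks the dye orientation, the block takes up dye effects too. Each slide held 2 arrays of different alleles, and slide was tried as a block. Other signals, background corrections, normalizations, filters and sample sets were tried as alternatives, and the test was checked on simulated data. The number of arrays limits the precision. Whether p-values reflect separate cultures rests on the series' word that the replicates are biological.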

Additional observations from a re-analysis of the deposited data

How the results depend on the processing

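Each of 15 counts was recomputed under 19 other settings. The counts of members higher than the reference (0) and of members that differed between alleles (0) were 0 under all of them. The number of members lower was 4 in each allele, and with the array number as a replicate block it was again 4 in each. With slide as a block it was 4, 5 and 5, since AAD15 was then called in tra1_SRR3413 and tra1-S3463A. Fewer members were called in tra1-S3463A when array 1 of that allele was counted with tra1_SRR3413, which leaves it 1 sample. Fewer were also called in tra1-P3408A and in tra1-S3463A when an array of that allele was left out, but not in tra1_SRR3413. The shares of all genes called in such fits are not given here.

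Of the pathway lists, 24, 28 and 23 genes were called in tra1-P3408A, tra1_SRR3413 and tra1-S3463A. These counts take both directions together. Among all genes, 7.93%, 11.7% and 8.69% were lower and 4.76%, 9.33% and 6.37% higher. The replicate block gave 36 in tra1-S3463A, where 21.9% of all genes were lower and 21.2% higher. The slide as a block gave 38 in tra1-P3408A and 44 in tra1-S3463A. Under the slide block 22.5% of all genes were lower and 21.3% higher in tra1-P3408A, and 24.2% and 24.5% in tra1-S3463A. The other assignment of array 1 gave 11 in tra1-S3463A. Leaving out arrays gave 0 to 25, 15 to 30 and 8 to 25. Of the neighbours, 2, 6 and 4 were called. In tra1-P3408A median centring gave 1, the replicate block, the slide block and a fit on the allele's own arrays gave 6 each, and the other assignment gave 4. In tra1_SRR3413 a fit on its own arrays gave 3, the replicate block 8 and the slide block 9. In tra1-S3463A a fit on its own arrays gave 2, the replicate block 6 and the slide block 8. Fewer neighbours were called in tra1-S3463A under the other assignment, and in each allele without either of its arrays. Fits with fewer arrays hold fewer degrees of freedom, and the cause of the other shifts was not tested. Requiring both channels well above background on all 6 arrays dropped AAD3. No log2 ratio with a call changed sign.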

Other observations

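The AAD genes that were lower had lower ratios on array 1, with the mutant in Cy5, than on array 2. The difference between the arrays, divided evenly around their mean and averaged over the alleles, was -0.31 for AAD4, -0.38 for AAD6 and -0.24 for AAD10, and it had the same sign in all 3 alleles for each. Of all genes tested, 4.49%, 2.14% and 8.86% had a value at or below these, and the 5th and 95th percentiles over genes were -0.30 and 0.28. OYE3 had -0.35, 0.15 and -0.11 for tra1-P3408A, tra1_SRR3413 and tra1-S3463A. Dye, array number and culture cannot be told apart here, since all arrays 1 had the mutant in Cy5.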
